A study of Mus musculus with 6 samples.

Results

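Transcripts of T cell receptor proximal signalling were compared between activated CD4 T cells lacking miR-155 and wild-type cells. The set comprised 36 genes, from the CD3 chains to the NFAT factors, and its members were all probe sets that the platform annotation names with 1 of these symbols. That gave 55 probe sets of the 22626 that are not controls, and they measured 32 of the 36 genes. Lck, Malt1, Cblb and Ubash3a had no probe set under their symbol in the annotation used and were not analysed here. All 32 measured genes passed the filter on dim genes.

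The cells were CD4 T cells of C57BL/6 mice, isolated from spleen and lymph nodes with CD4 magnetic beads. The KO group had 3 arrays of miR-155 KO cells, from a published knockout strain, and the WT group had 3 arrays of wild-type cells. Antibodies to CD3 and CD28 (1 µg/mL) stimulated all 6 cultures for 3 days with 20 U/mL of interleukin 2 added, so the receptor had been engaged in both genotypes. The series design assigns each array to a different mouse, the labels give no age or sex, and unstimulated cells were not analysed here.

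The T cell receptor has no enzyme of its own. The CD3 chains and the zeta chain carry tyrosine motifs that the kinase Lck phosphorylates; ZAP-70 docks on them and phosphorylates the adaptors LAT and SLP-76, on which phospholipase C gamma, Vav and Ras activators assemble. Diacylglycerol and calcium then switch on protein kinase C theta, Ras, NF-kappa B and NFAT, while phosphatases, ubiquitin ligases and diacylglycerol kinases dampen the signal.

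The microRNA that the KO cells lack is shown here with its seed (bases 2 to 8) in capitals, since it is the one designed difference between the groups. It lies at chr16:84714143-84714165 on the plus strand of GRCm38.p6, within the transcript of Mir155hg, and the sequence is from RefSeq.
mmu-miR-155-5p: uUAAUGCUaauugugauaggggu

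Values are deposited log2 RMA summaries of probe sets, and each gene is represented by its brightest probe set. Differences are KO minus WT, SE is the standard error from limma, and a gene was called at a limma adjusted p under 0.05 over the 9295 genes tested. Mir155hg, the host transcript, measured 3.51, 3.89 and 4.45 in KO and 7.69, 6.59 and 8.21 in WT, so each array lay on its label's side. The deleted part is not given in the sources used here.

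The arrays were not uniform. Eif2s3y, which is Y-linked, measured 3.50, 10.41 and 10.05 in KO replicates 1 to 3 and 3.44, 10.51 and 10.21 in WT replicates 1 to 3. Xist, the RNA of the inactive X chromosome, measured 13.35, 5.94 and 12.59 in KO and 13.08, 5.66 and 12.64 in WT. Replicate 1 arrays thus carried Xist alone, replicate 2 arrays the Y-linked transcript alone and replicate 3 arrays both, which goes against 1 mouse per array for replicate 3. KO replicate 1 stood apart on 23 cell cycle genes, with a median deviation of -0.89 from their 6-array means, against -0.02 to 0.33 on the other arrays. The summed level of these genes did not overlap between genotypes, at 14.78 to 15.69 in KO and 15.82 to 15.95 in WT, and its part in the members' differences was not tested. A gene's summary on 6 arrays limits the precision of everything that follows.

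None of the 32 members was called between KO and WT. Over all 9295 genes 0 (0%) were called, and the smallest limma adjusted p of a member was 0.631. Mir155hg, at a difference of -3.55, was not called either (limma adjusted p = 0.545). The absence of a call therefore does not show that a member was unchanged. At an unadjusted limma p under 0.05 there were 2 members, Vav1 and Dgka, both higher in KO, or 6.25% of the members against 7.43% of all genes (3.57% higher and 3.86% lower in KO). The arrays of the genotypes did not overlap for 2 members, Ptprc and Vav1, again both higher in KO. That is 6.25% of the members, against a background of 12.8% (5.86% higher and 6.92% lower in KO). By sign, 19 members were higher and 13 lower in KO, so 59.4% were higher, against 49.2% of all genes. The median difference was 0.14, against -0.0036 over all genes, and without WT replicate 1 it was 0.0048. An absolute difference of at least 0.5 was reached by Sos1 and Dgka, against 11.1% of all genes.

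The members under an unadjusted limma p of 0.05 depended on the arrays kept. Without KO replicate 2 they were Cd247, Cd2, Sos1 and Dgka (16.6% of all genes), without KO replicate 3 Vav1 (3.15%) and without WT replicate 3 Dgka (14.4%). Without KO replicate 1, WT replicate 1 or WT replicate 2 there were 0 members, against 4.92%, 2.97% and 3.01% of all genes.

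**Figure D1:**
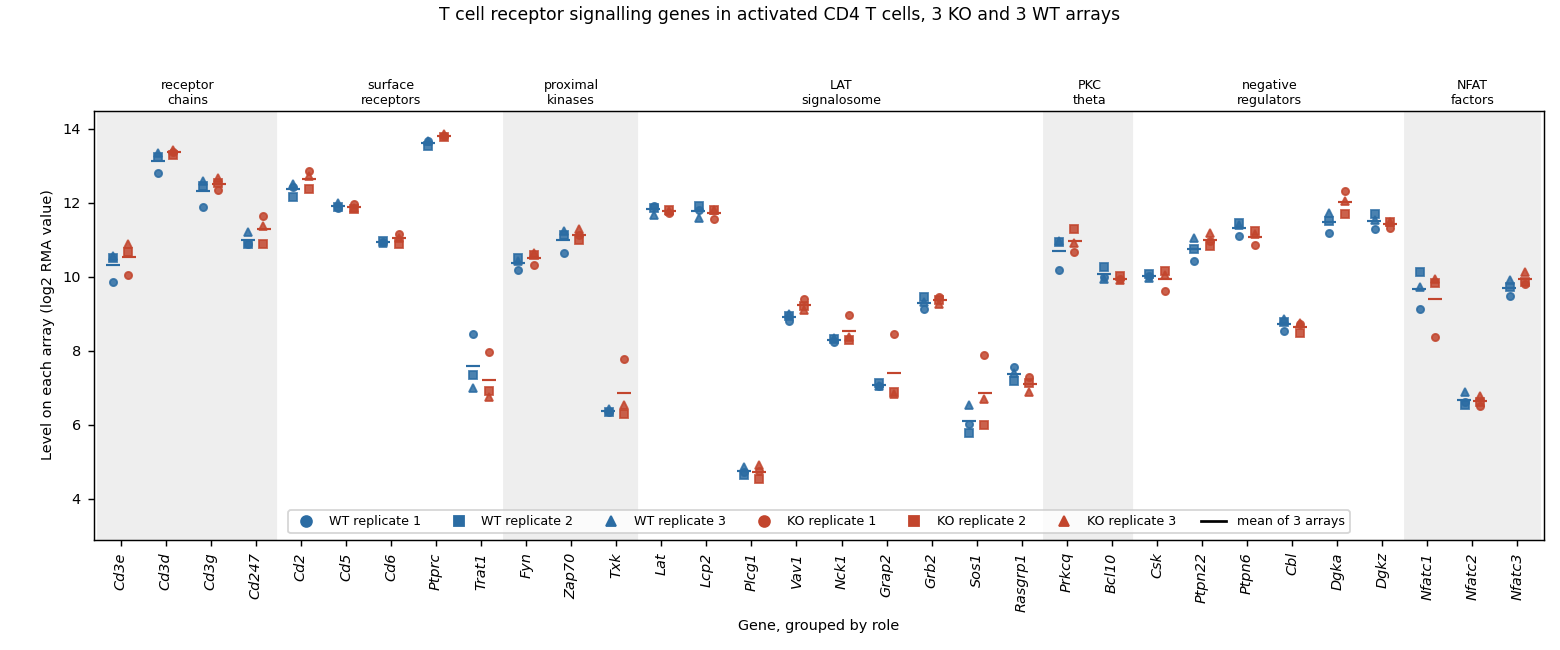
Level of each of the 32 measured genes (x axis, grouped by role) on each array (y axis, log2 RMA value); WT in blue, KO in red, the marker shape gives the replicate and the horizontal line the mean of 3 arrays. The groups overlap for all genes other than Ptprc and Vav1, and KO replicate 1 (red circle) lies above the other arrays for Txk, Nck1, Grap2 and Sos1; levels of different genes are not comparable.

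The receptor chains were all slightly higher in KO, by 0.21 to 0.30, with a median of 0.22, and none was called. Cd3e, the chain through which the CD3 antibody acts, measured 10.04, 10.66 and 10.88 in KO and 9.86, 10.52 and 10.58 in WT. Its difference was 0.21 ± 0.28 (SE, 95% interval -0.47 to 0.89, limma adjusted p = 0.804). The genotypes overlapped, with replicate 1 the lowest array in both.

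Cd3d, the delta chain, measured 13.38, 13.28 and 13.43 in KO and 12.82, 13.24 and 13.34 in WT. Its difference was 0.23 ± 0.16 (SE, 95% interval -0.16 to 0.62, limma adjusted p = 0.650). Cd3g, the gamma chain, measured 12.36, 12.53 and 12.68 in KO and 11.89, 12.45 and 12.59 in WT. For both genes WT replicate 1 was the lowest array and KO replicate 3 the highest. Cd3g differed by 0.21 ± 0.21 (SE, limma adjusted p = 0.731). Without WT replicate 1 the differences of Cd3e, Cd3d and Cd3g were -0.022, 0.076 and -0.00027, so 2 of these signs turn on that array.

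Cd247, the zeta chain with most of the complex's signalling motifs, followed another order over the arrays. It measured 11.66, 10.88 and 11.37 in KO and 10.90, 10.89 and 11.21 in WT, highest on KO replicate 1 and lowest on KO replicate 2. The difference was 0.30 ± 0.22 (SE, 95% interval -0.22 to 0.82, limma adjusted p = 0.657), a 1.23-fold higher mean in KO. It was 0.12 without KO replicate 1 and 0.51 without KO replicate 2. Its 4 probe sets all had a positive difference, from 0.081 to 0.36.

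Cd3g, Cd3d and Cd3e follow one another as neighbouring protein-coding genes on chromosome 9 in RefSeq of assembly GRCm38.p6, whereas Cd247 lies on chromosome 1. The 3 neighbours shared their lowest array, WT replicate 1, and their highest, KO replicate 3, and Cd247 did not. That order was not particular to them, since Fyn, Zap70, Ptpn22 and Nfatc3 had the same lowest and highest array. The 250 bases before each start of the receptor chain genes are shown, from RefSeq, read on the gene's strand. The windows are chr9:45009612-45009861 (minus) for Cd3e, chr9:44981536-44981785 (plus) for Cd3d, chr9:44980432-44980681 (minus) for Cd3g and chr1:165788431-165788680 (plus) for Cd247. Capitals mark AGGAAG or its reverse complement CTTCCT, letters found in sites of ETS factors.
Cd3e: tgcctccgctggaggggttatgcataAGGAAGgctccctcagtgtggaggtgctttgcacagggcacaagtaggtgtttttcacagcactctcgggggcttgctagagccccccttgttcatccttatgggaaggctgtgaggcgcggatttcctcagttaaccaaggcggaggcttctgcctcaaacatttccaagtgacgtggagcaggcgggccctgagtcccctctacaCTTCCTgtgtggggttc
Cd3d: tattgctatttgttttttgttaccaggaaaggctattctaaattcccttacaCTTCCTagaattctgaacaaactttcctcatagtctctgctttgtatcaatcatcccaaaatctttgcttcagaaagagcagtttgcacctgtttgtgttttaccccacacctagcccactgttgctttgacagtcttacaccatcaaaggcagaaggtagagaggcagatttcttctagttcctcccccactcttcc
Cd3g: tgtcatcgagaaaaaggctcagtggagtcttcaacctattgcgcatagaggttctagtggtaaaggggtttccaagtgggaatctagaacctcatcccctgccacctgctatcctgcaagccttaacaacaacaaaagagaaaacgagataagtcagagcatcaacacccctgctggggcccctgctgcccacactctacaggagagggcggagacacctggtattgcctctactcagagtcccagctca
Cd247: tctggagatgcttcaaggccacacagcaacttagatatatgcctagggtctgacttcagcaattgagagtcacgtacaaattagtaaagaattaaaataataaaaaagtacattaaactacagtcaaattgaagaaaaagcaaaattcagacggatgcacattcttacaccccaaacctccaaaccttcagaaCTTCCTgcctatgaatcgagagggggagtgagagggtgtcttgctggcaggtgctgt

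On both strands, AGGAAG had 2 matches in the Cd3e window, 1 in that of Cd3d, 1 in that of Cd247 and 0 in that of Cd3g. Of 32851 RefSeq promoter windows of the same length, 29.5% hold it. TGTGGT, letters found in RUNX sites, and CAGCTG, an E-box, had 0 matches in these 4 windows and are in 14% and 13% of all windows. A match is a description of the letters and not a measured binding site.

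WT replicate 1 was the lowest array for 13 of the 32 members, or 40.6%, against 22.8% of all genes, and the median deviation of the members on it was -0.19, against -0.02 to 0.08 on the other 5 arrays. Other members did not share this. WT replicate 1 was the highest array for 3 members (9.4%, against 23.4% of all genes), namely Lat, Trat1 and Rasgrp1. It was the lowest for 0 of the 5 surface receptors Cd2, Cd5, Cd6, Ptprc and Trat1, whose median deviation on it was -0.04. The summed level of T cell markers outside the set was also lowest on WT replicate 1. Of 13 such markers listed, 6 had a probe set, all past the filter. Their summed level, as the log2 of the summed unlogged values, was 13.20 on WT replicate 1 and 13.49 and 13.74 on the other WT arrays, against 13.60 to 13.87 in KO. Cd28 was the 1 of these 6 with an unadjusted limma p under 0.05, as 7.43% of all genes had, with a difference of 0.67. Icos was lower in KO, at -0.13. Over all marker lists 2 markers had such a p. Of the 61 markers with a probe set, those below the filter were not tested and could not have one.

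Markers of other cell types were given the same account. B cell markers (8 of 10 with a probe set) summed to 10.95 to 11.75 in KO and 10.62 to 11.94 in WT, with WT replicate 1 the highest, and Pax5 was below the filter. Macrophage and monocyte markers (9 of 11 with a probe set, 4 past the filter) had the largest median difference of the marker lists, 0.46, with Ccr2 at 0.86 and Cd68 at 0.63. They summed to 8.21 to 9.004 in KO and 7.95 to 8.60 in WT, lowest on WT replicate 1 and highest on KO replicate 1, and Cd14, Lyz2 and Itgam were below the filter. Dendritic cell markers (5 of 7 with a probe set) and gamma delta T cell markers (2 of 8) were, like those of B cells, highest on WT replicate 1, at 10.13 and 6.61. Neutrophil and platelet markers were lowest on it, at 7.16 and 7.32. For NK cell, erythroid and CD8 T cell markers it was neither. Of 11 marker lists 10 overlapped between genotypes. Platelet markers were the exception, at 7.43 to 7.46 in KO and 7.32 to 7.40 in WT, with Pf4 and Ppbp, which define platelets, below the filter. Cd4, the marker of the sorted cells, measured 9.13, 8.89 and 9.25 in KO and 8.83, 9.06 and 9.23 in WT, lowest on WT replicate 1. The summed CD4 T cell markers were also lowest there, at 9.36 against 9.57 to 9.93 on the other arrays. Zbtb7b of that list had a difference of 0.48 and an unadjusted limma p under 0.05, as 7.43% of all genes had. Cd4 differed by 0.05, and Cd40lg of the same list was lower in KO, at -0.15. Cd8a averaged 5.87 in KO and 5.85 in WT. The part of these markers in the members' differences was not tested. A smaller share of T cells cannot be told apart from lower levels of these transcripts in each T cell.

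**Figure D2:**
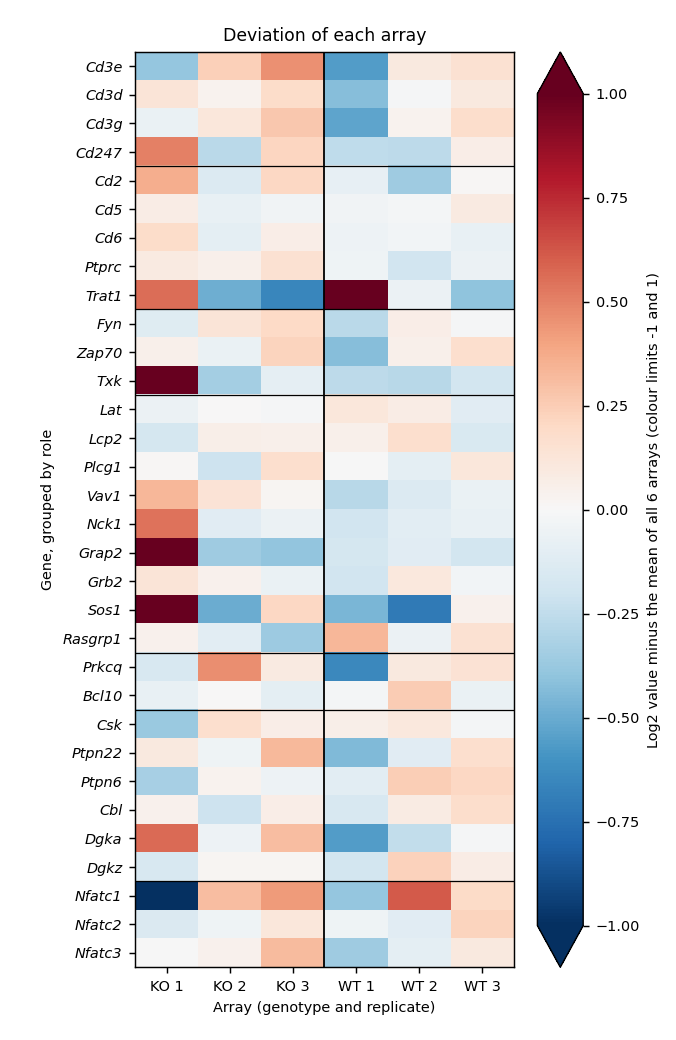
Deviation of each array (x axis) from the 6-array mean of each gene (y axis, grouped by role), in log2 units; red is above and blue below the mean, with colours limited at -1 and 1. The column of WT replicate 1 is blue for Cd3e, Cd3d, Cd3g and Zap70, and the column of KO replicate 1 is dark red for Txk, Grap2 and Sos1 and dark blue for Nfatc1.

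Among surface receptors that tune the signal, 3 of 5 were higher and 2 lower in KO, with differences from -0.38 to 0.28 and none called. Ptprc, which encodes the phosphatase CD45 that keeps Lck and Fyn ready, measured 13.81, 13.77 and 13.87 in KO and 13.68, 13.53 and 13.66 in WT. All 3 KO arrays lay above all 3 WT arrays. The difference was 0.19 ± 0.11 (SE, limma adjusted p = 0.631, exact two-sided permutation p = 0.1, the smallest that 3 against 3 arrays can give). It ranged from 0.15 to 0.22 with 1 array left out, and the mean over all arrays was 1.14-fold higher in KO. As the genotypes did not overlap, leaving out 1 array could not turn the sign, so this range describes the size alone.

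Cd2, an adhesion receptor that binds CD48, measured 12.87, 12.37 and 12.72 in KO and 12.43, 12.16 and 12.53 in WT. The genotypes overlapped, and the difference was 0.28 ± 0.17 (SE), or 0.17 without KO replicate 1 and 0.18 without WT replicate 2. Cd6 differed by 0.10 ± 0.12 (SE), or 0.038 without KO replicate 1 and 0.18 without KO replicate 2. Cd5, an inhibitory receptor whose level follows receptor signal strength in thymocytes, had a KO mean of 11.89 ± 0.08 and a WT mean of 11.92 ± 0.07 (SD, n = 3). Its difference was -0.024, with a 95% interval of -0.29 to 0.24. The sign of Cd5 was positive without KO replicate 2 (0.0063) or WT replicate 3 (0.015), and also without both replicate 3 arrays (0.028).

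Trat1 encodes TRIM, a transmembrane adaptor of the receptor complex, and its level tracked the replicate number more than the genotype. It measured 7.97, 6.92 and 6.76 in KO and 8.45, 7.35 and 7.01 in WT. Each KO array lay below the WT array of the same number, by 0.48, 0.43 and 0.25. The unpaired difference was -0.38 ± 0.46 (SE, limma adjusted p = 0.776), and it was 0.039 without WT replicate 1.

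Fyn, Zap70 and Txk, the measured proximal kinases, were higher in KO by 0.14 to 0.48 and none was called. Fyn, a Src-family kinase related to Lck, measured 10.33, 10.58 and 10.65 in KO and 10.18, 10.52 and 10.44 in WT. Zap70, the kinase that docks on phosphorylated CD3 and zeta chains, measured 11.12, 11.00 and 11.30 in KO and 10.65, 11.12 and 11.24 in WT. Both overlapped between genotypes, with differences of 0.14 ± 0.15 and 0.14 ± 0.18 (SE, limma adjusted p = 0.744 and 0.795).

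Without WT replicate 1 the difference of Zap70 was -0.036 and that of Fyn 0.041. Fyn differed by 0.076 without KO replicate 3 and by 0.24 without KO replicate 1. A dimmer Zap70 probe set measured 8.12, 7.93 and 8.10 in KO and 7.80, 7.62 and 7.84 in WT, with no overlap and a difference of 0.30. The probe sets of Zap70 thus agreed in sign but not in separation. Txk, a Tec-family kinase, measured 7.78, 6.29 and 6.53 in KO and 6.36, 6.35 and 6.43 in WT. One KO array lay above the rest, so the difference of 0.48 ± 0.37 (SE) was 0.029 without KO replicate 1.

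The LAT signalosome had 5 of 9 genes higher and 4 lower in KO, with a median difference of 0.074. Lat, the membrane adaptor on which the complex forms, had a KO mean of 11.78 ± 0.03 and a WT mean of 11.82 ± 0.12 (SD, n = 3), with a difference of -0.046 and a 95% interval of -0.32 to 0.23. With 1 array left out it was lowest without WT replicate 3 (-0.11) and nearest 0 without WT replicate 1 (-0.0012). Lcp2, which encodes SLP-76, differed by -0.047 (95% interval -0.37 to 0.28), and by 0.029 and 0.025 without KO replicate 1 and WT replicate 2. Grb2, the adaptor that brings Sos proteins to LAT, differed by 0.074 (95% interval -0.23 to 0.38), and by -0.0044 without WT replicate 1. Plcg1, the phospholipase gene, averaged 4.73 in KO and 4.74 in WT, next to the dimmest gene tested (4.72), which leaves little room to see a decrease.

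Vav1, an exchange factor for Rac that also stabilises the complex, was the member of this group with no overlap. It measured 9.41, 9.21 and 9.10 in KO and 8.80, 8.95 and 9.01 in WT. The mean was 1.25-fold higher in KO, a difference of 0.32 ± 0.13 (SE, unadjusted limma p = 0.0446, limma adjusted p = 0.631, exact two-sided permutation p = 0.1), and it ranged from 0.24 to 0.39 with 1 array left out.

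For Sos1, Grap2 and Nck1 the KO mean was pulled up by replicate 1. Sos1, a guanine nucleotide exchange factor that activates Ras, measured 7.89, 6.00 and 6.70 in KO and 6.03, 5.78 and 6.53 in WT. Its difference, the largest among the members at 0.75 ± 0.47 (SE, limma adjusted p = 0.640), was 0.23 without KO replicate 1. Grap2, which encodes the adaptor GADS that links SLP-76 to LAT, measured 8.46, 6.88 and 6.85 in KO and 7.06, 7.12 and 7.06 in WT.

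The difference of Grap2 was 0.31 ± 0.43 (SE) and turned to -0.22 without KO replicate 1. In Nck1, an adaptor to the actin machinery, the difference was 0.25 and became 0.036 without that array. KO replicate 1 is the array with the lowest cell cycle median given above, and the part of that in these values was not tested. Rasgrp1, the Ras activator that responds to diacylglycerol, went the other way, at 7.28, 7.14 and 6.88 in KO and 7.57, 7.18 and 7.40 in WT. Its genotypes overlapped, and the difference was -0.28 ± 0.16 (SE, limma adjusted p = 0.631), or -0.17 without KO replicate 3 and -0.19 without WT replicate 1.

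**Figure D3:**
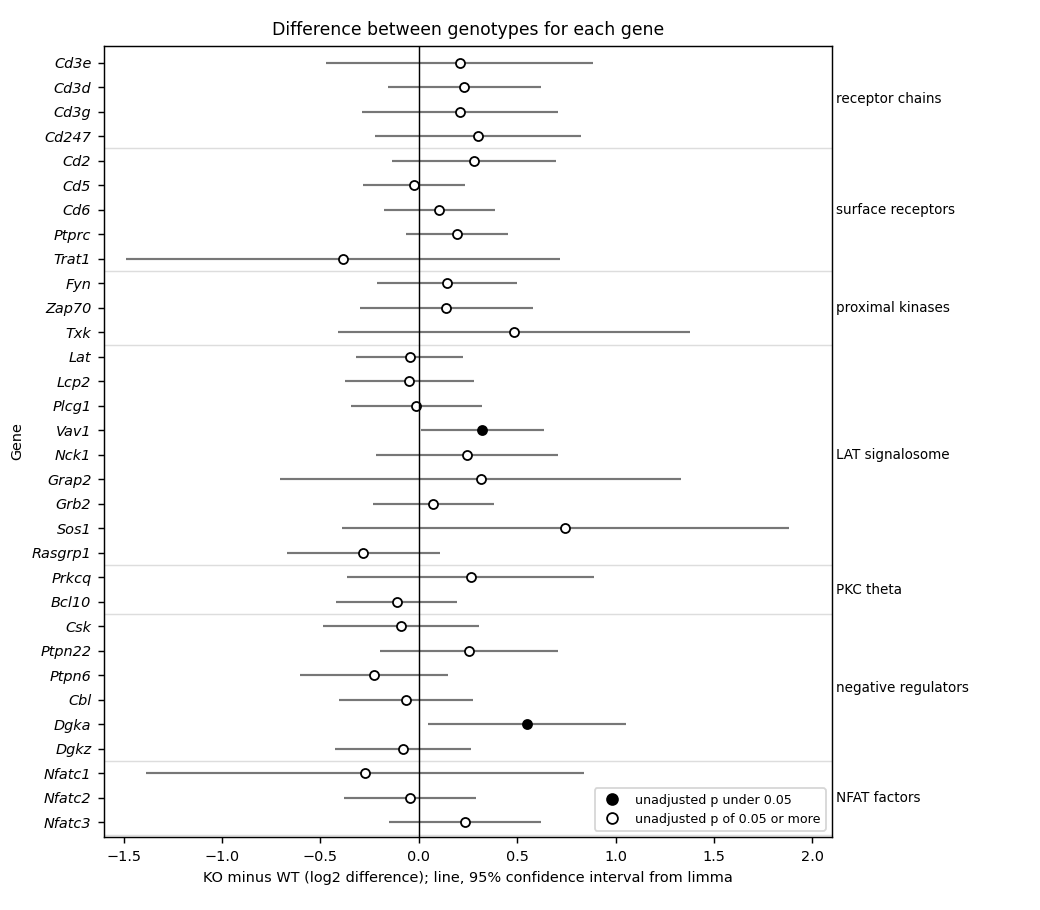
KO minus WT difference of each gene (x axis, log2) with its 95% confidence interval from limma (line), grouped by role (y axis); filled points have an unadjusted p under 0.05. The intervals of Vav1 and Dgka are the ones that lie above 0, those of Cd5, Lat and Bcl10 are among the narrow ones, and those of Sos1, Trat1, Nfatc1 and Grap2 are wide.

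Of the branch to NF-kappa B, Prkcq and Bcl10 were measured. Prkcq, protein kinase C theta, had a KO mean of 10.97 ± 0.31 and a WT mean of 10.70 ± 0.44 (SD, n = 3). The difference of 0.26 was 0.0099 without WT replicate 1, its lowest array. Bcl10, an adaptor that binds Malt1, differed by -0.11 ± 0.13 (SE), and its dimmer probe sets by -0.10 and -0.26. Without WT replicate 2 the difference of Bcl10 was -0.014, and without WT replicate 3 it was -0.17.

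The negative regulators had 2 genes higher and 4 lower in KO, of 6 measured, with a median difference of -0.073. Dgka, a kinase that removes diacylglycerol and is known to be high in resting T cells, had the smallest p of all members. It measured 12.31, 11.70 and 12.06 in KO and 11.19, 11.50 and 11.73 in WT, and the lowest KO array lay just under the highest WT array. The mean was 1.46-fold higher in KO, a difference of 0.55 ± 0.21 (SE, unadjusted limma p = 0.0370, adjusted p = 0.631, exact two-sided permutation p = 0.2), and 0.40 to 0.71 with 1 array left out. The related kinase gene Dgkz differed by -0.081 ± 0.14 (SE), and by 0.014 without WT replicate 2. The interval of Dgka (0.04 to 1.05) and that of Dgkz (-0.43 to 0.26) overlap, and the difference between them was not tested.

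Ptpn22, a phosphatase that acts on Lck and ZAP-70, measured 10.97, 10.83 and 11.20 in KO and 10.43, 10.76 and 11.04 in WT, with a difference of 0.26 ± 0.19 (SE). It was 0.099 without WT replicate 1, 0.16 without KO replicate 3 and 0.40 without WT replicate 3. Ptpn6, which encodes the phosphatase SHP-1, measured 10.87, 11.24 and 11.15 in KO and 11.10, 11.45 and 11.41 in WT, with a difference of -0.23 ± 0.16 (SE), or -0.12 without KO replicate 1. Both overlapped between genotypes, and they had opposite signs. A dimmer Ptpn6 probe set, of a type that can bind related transcripts, differed by -0.023. Csk, the kinase that inhibits Lck, differed by -0.091 (0.072 without KO replicate 1), and the ubiquitin ligase gene Cbl by -0.064 (0.023 without KO replicate 2, 0.0071 without WT replicate 3).

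Of the NFAT genes, transcription factors that calcineurin sends to the nucleus, 1 was higher and 2 were lower in KO. Nfatc1 measured 8.38, 9.84 and 9.96 in KO and 9.14, 10.14 and 9.72 in WT. Replicate 1 was the lowest array in both genotypes, KO replicate 1 lower still, and the difference of -0.27 ± 0.46 (SE) turned to 0.23 without KO replicate 1. Its dimmer probe set had the same lowest array, at 6.93 on KO replicate 1 against 7.94 to 8.52 on the WT arrays.

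Nfatc3 measured 9.82, 9.87 and 10.14 in KO and 9.47, 9.73 and 9.92 in WT, a difference of 0.23 ± 0.16 (SE, limma adjusted p = 0.650). It was 0.12 without WT replicate 1 and 0.14 without KO replicate 3. A dimmer Nfatc3 probe set, at 7.85, 7.88 and 8.13 in KO and 7.52, 7.73 and 7.83 in WT, did not overlap and differed by 0.26. Nfatc2 differed by -0.045, and by 0.015 without KO replicate 1 and 0.057 without WT replicate 3, and its 3 dimmer probe sets had differences of 0.026 to 0.062.

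Over the 55 probe sets, 33 were higher and 22 lower in KO (50.4% of all probe sets were higher), and none was called over the 22626 probe sets (0% called). At an unadjusted limma p under 0.05 there were 3, or 5.45%, against 6.55% of all probe sets (3.22% higher, 3.33% lower). The arrays did not overlap for 5 (9.09%, against 11.7% of all probe sets, of which 5.89% were higher and 5.83% lower), and all 5 were higher in KO. They belong to Ptprc, Vav1, Zap70, Nfatc3 and Sos1, the last one dimmer than every gene tested. Of 16 members with several probe sets, 11 had differences of 1 sign and 5 did not, namely Fyn, Nck1, Rasgrp1, Cbl and Nfatc2.

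**Figure D4:**
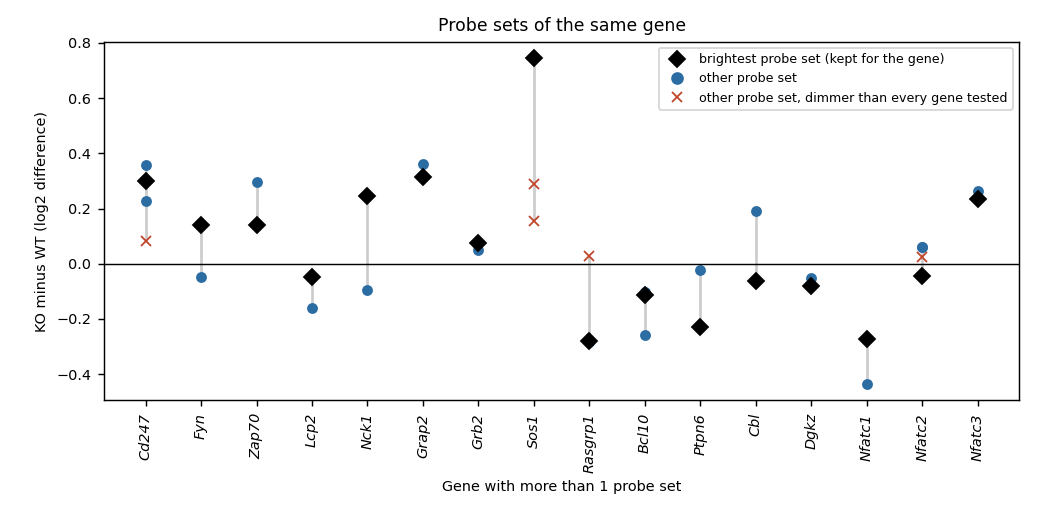
KO minus WT difference (y axis, log2) of every probe set of the 16 genes with more than 1 (x axis); diamonds are the brightest probe set, kept for the gene, and crosses those dimmer than every gene tested. In Fyn, Nck1, Rasgrp1, Cbl and Nfatc2 the probe sets lie on both sides of 0.

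Since sex-linked transcripts matched between arrays of the same number, each member was also compared within number. In replicate 1 arrays the KO minus WT differences were large for some genes, 1.86 for Sos1, 1.42 for Txk, 1.40 for Grap2, 1.13 for Dgka and -0.76 for Nfatc1. In replicate 2 and 3 arrays the same genes differed by 0.21 and 0.16, by -0.061 and 0.098, by -0.24 and -0.21, by 0.19 and 0.33, and by -0.30 and 0.24. These genes were picked for their wide differences in replicate 1, which holds the 2 arrays named above as apart. Other members differed most elsewhere. In replicate 3 Rasgrp1 differed by -0.52 and Cd3e by 0.31, against -0.28 and 0.18 in replicate 1. KO replicate 1 was the highest or lowest array for 46.9% of the members and 56.0% of all genes. For WT replicate 1 these shares were 50% and 46.2%, so extreme values on these arrays were not particular to the members.

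All 3 within-number differences had 1 sign for 15 members (46.9%), 11 higher and 4 lower in KO, against 44.2% of all genes (19.6% higher, 24.6% lower). The 4 lower ones were Trat1, Rasgrp1, Bcl10 and Ptpn6, the last with differences of -0.23, -0.21 and -0.26. Among the 11 higher were Cd3e, Cd3d, Cd3g, Ptprc, Vav1 and Dgka. For Ptprc and Vav1, whose genotypes did not overlap, the 3 signs were fixed whatever the numbering. The smallest within-number differences of the CD3 genes, 0.049 for Cd3d and 0.077 for Cd3g, were those of replicate 2. Without both replicate 3 arrays 0 members had an unadjusted limma p under 0.05, and the median difference was 0.14.

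**Figure D5:**
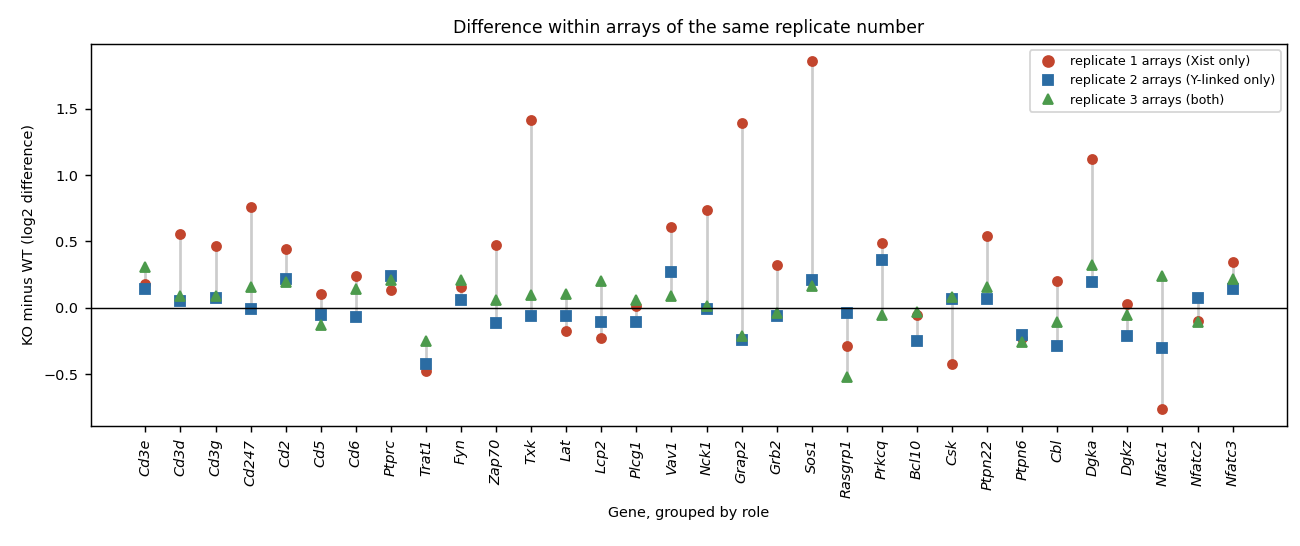
KO minus WT difference (y axis, log2) within arrays of the same replicate number, for each gene (x axis, grouped by role); circles are replicate 1, squares replicate 2 and triangles replicate 3. For Txk, Grap2 and Sos1 the circle lies above 1 while the other points lie within 0.25 of 0. For Ptprc and Vav1 all 3 points are above 0, as they must be where the genotypes do not overlap.

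Further genes of the pathway were taken from lists of 98 symbols, of which 71 were tested. None was called. By sign, 44 had a higher and 27 a lower KO mean, so 62.0% were higher, against 49.2% of all genes. The median difference was 0.070, and it was 0.020 with WT replicate 1 left out, 0.14 with KO replicate 2 left out, 0.033 without KO replicate 1, 0.11 without WT replicate 3 and 0.13 without both replicate 3 arrays. At an unadjusted limma p under 0.05 there were 2, both higher, or 2.82% of these genes against 7.43% of all genes. The genotypes did not overlap for 6 (8.45%, against 12.8% of all genes). All 6 were higher in KO, as were 5.86% of all genes.

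Of the other adaptors and exchange factors 11 of 17 were higher, with the smallest p for Skap2, an adaptor, which measured 9.33, 9.35 and 9.42 in KO and 8.52, 8.82 and 9.13 in WT. Its difference of 0.54 ± 0.17 (SE, limma adjusted p = 0.631) came with no overlap, and Rasgrp2, a calcium-responsive activator of Rap1, differed by 0.35. Of the other negative regulators 10 of 16 were higher, led by the ubiquitin ligase gene Itch at 0.33 and by Inpp5d, the phosphatase SHIP-1, at 0.39. Of the calcium branch 8 of 13 were higher, led by the calcium channel gene Itpr3 at 0.46 and the calcineurin subunit gene Ppp3cc at 0.41. These differences were large within replicate 1 and small within replicates 2 and 3, at 1.08, 0.15 and 0.15 for Itpr3 and 1.03, 0.077 and 0.12 for Ppp3cc. For Inpp5d they were 0.87, 0.068 and 0.24.

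In the Ras, PI3K and MAP kinase branch 8 of 13 were higher, with Pik3cd, a catalytic PI3K subunit, at 0.32 and Nras at -0.19. Pik3cd differed by 0.81, 0.10 and 0.055 within replicates 1 to 3, and Nras by -0.49, 0.041 and -0.14. The other gene with an unadjusted p under 0.05 beside Skap2 was Tnfaip3. Tnfaip3, which encodes the NF-kappa B inhibitor A20, measured 7.94, 6.48 and 6.88 in KO and 5.99, 6.23 and 6.40 in WT, a difference of 0.89 with no overlap. Among the other kinases and receptor partners 3 of 4 were higher, Sh2d2a at 0.16 and Cd4 at 0.05.

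With array weights, a setting in which limma estimates how reliable each array is, 9 of the 32 members passed an adjusted p under 0.05 (28.1%), against 38.5% of all genes. These were Cd247, Cd2, Ptprc, Sos1, Ptpn22, Dgka and Nfatc3 on the higher side and Bcl10 and Ptpn6 on the lower side. The estimated weights were 5.55 for KO replicate 3 and 5.04 for WT replicate 2, and 0.27 to 0.58 for the other 4 arrays. That fit therefore compared mainly 1 KO with 1 WT array, which also differed in their sex-linked transcripts. With array weights in the fit over all 22626 probe sets, 0 were called, and 5283 had an unadjusted limma p under 0.05.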

How the data were processed

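Per the submitters' processing notes, RMA and affy gave the deposited log2 values; no version or genome build was given in the sources used here. The table held 22690 probe sets on 6 arrays, 64 of them controls. In GEO's platform annotation 20380 probe sets other than controls had 1 gene symbol, 691 had several and 1619, controls included, had none. Each of 12393 genes was represented by its probe set with the highest mean, and the dimmest 25% of genes were dropped. The test was limma 3.58.1 (R 4.3.3; lmFit and eBayes, two-sided, Benjamini-Hochberg adjustment), over genes and separately over all probe sets. No detection calls were used. The code was tested on simulated data. The alternatives were a replicate block, arrays left out, median centring, a further quantile normalization, other filters, the mean of probe sets, trend and robust moderation, and array weights (statmod 1.5.0). The members and lists were chosen with earlier results of these data known. Values on each array were to be given for receptor chains, kinases, members with an unadjusted p under 0.05 and members without overlap. Cd2, Trat1, Sos1, Grap2, Rasgrp1, Ptpn22, Ptpn6, Nfatc1, Nfatc3, Skap2, Tnfaip3 and the dimmer probe sets were added after their values were seen. Of each further pathway list the 2 genes with the smallest p were named. The counts of 1 such list are not reported here.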

Additional observations from a re-analysis of the deposited data

How the results depend on the processing

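No member had a limma adjusted p under 0.05 under any alternative other than array weights; 3 arrays a genotype limit the precision, and groups of 3 were not tested for outlying arrays. With array weights, 3575 genes but 0 probe sets were called, 4711 genes, 5283 probe sets and 13 members had an unadjusted p under 0.05, and Plcg1 was at 0.21, Grap2 at -0.19, Grb2 at -0.12 and Nfatc2 at 0.17, with the sign turned; the weights of the gene fit rest mainly on KO replicate 3 and WT replicate 2. With the replicate number as a block, 1 member (Trat1) and 9.88% of genes had an unadjusted p under 0.05, and none was called. The labels state no pairing, and deviations of same-numbered arrays correlated at -0.042, 0.64 and 0.40 over genes, so the numbers were not taken as pairs. Sex-linked transcripts did match by number, so the SEs of the main fit include any spread between numbers. With the block the SE was 0.11 for Trat1 and 0.10 for Cd3e, against 0.46 and 0.28 in the main fit. For Vav1 and Dgka it was 0.14 and 0.22, against 0.13 and 0.21. Without both replicate 3 arrays, 0 members and 445 genes had an unadjusted p under 0.05, and Cd5 was at 0.028. With the filter at 50% 1 member had, and with the mean of probe sets Cbl was at 0.063 and Nfatc2 at 0.026. With 1 array left out, the unadjusted counts ran from 0 to 4 members, 276 to 1542 genes and 680 to 3100 probe sets, and the members' median from 0.0048 to 0.19. The KO minus WT log2 differences whose sign turned then ran from -0.022 to 0.45 for Cd3e, -0.00027 to 0.35 for Cd3g, -0.068 to 0.015 for Cd5, -0.76 to 0.039 for Trat1, -0.036 to 0.26 for Zap70, -0.13 to 0.029 for Lcp2, -0.10 to 0.087 for Plcg1, -0.22 to 0.59 for Grap2, -0.0044 to 0.15 for Grb2, -0.20 to 0.072 for Csk, -0.16 to 0.023 for Cbl, -0.19 to 0.014 for Dgkz, -0.56 to 0.23 for Nfatc1 and -0.11 to 0.057 for Nfatc2. The other 18 members kept their sign with any 1 array left out, and of these Ptprc, Vav1 and Dgka moved by less than 1.5 times. For Ptprc and Vav1, whose genotypes did not overlap, the sign could not have turned. The cause of these changes was not tested.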
